A study of Rattus norvegicus with 12 samples.

Results

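Accessible chromatin was described in the 200 kb around Hif3a on rat chromosome 1 (chr1:78900000-79100000, assembly Rnor_6.0), in amygdala from rats given saline or ethanol. All peaks of the 12 libraries that overlapped this window were taken and merged wherever they shared at least 1 bp. The window held 187 of the 730912 peaks of the 12 lists, and these merged into 23 of the 118874 regions of the whole genome. Of the 23 regions, 2 lay in the 10 kb block at the Hif3a promoters (chr1:78995000-79005000) and 21 lay outside it. Hif3a is transcribed toward lower coordinates, so 19 of the 21 regions lay on the gene side of the block and 2 on its upstream side. The window and the block were selected on the covered length of the promoter peaks, which was greater after ethanol in these same libraries. Values of the block are therefore given as a description without a test, and the tests concern the surroundings. The question was whether the longer peaks of the Ethanol group extended to the neighbouring regions or were local to the promoters.

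The rats were adult male Sprague Dawley animals, labelled wild type, that received an intraperitoneal injection of saline (Control, 6 libraries) or of ethanol at 1 g/kg (Ethanol, 6 libraries). Amygdala tissue was taken 1 h later, frozen and assayed by ATAC-seq, a method that marks open DNA by letting a transposase cut it and attach adapters there. The deposited data are a list of peaks with a score for each library, without read counts, so the sequencing depth is unknown. The tissue is a mixture of neurons and glia, and a change in the share of a cell type cannot be told apart from a change in accessibility within its cells.

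HIF3A belongs to the hypoxia-inducible factors, transcription factors whose alpha subunits pair with ARNT and bind the hypoxia response element of target genes. The alpha subunits are hydroxylated by prolyl hydroxylases and degraded through VHL when oxygen is plentiful. HIF3A lacks the C-terminal transactivation domain of HIF1A and EPAS1, and some of its isoforms, such as the inhibitory PAS protein, restrain the other family members. The gene uses alternative promoters that give rise to isoforms with different first exons. In the gene order of the RefSeq annotation (GRCr8), Hif3a follows Ccdc8, a cofactor of the p53 pathway and a subunit of the 3M complex, and Ppp5c, a serine/threonine phosphatase that works with the chaperone HSP90. On its other side it is followed by Cgm4 and Psg16, members of the carcinoembryonic antigen family.

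RefSeq lists 2 start sites for Hif3a, 5733 bp apart on the minus strand of chromosome 1. The 250 bases before each are shown as the promoter sequences of the gene at the centre of the window, and they were not placed on the peaks. Capitals mark CpG dinucleotides, the targets of DNA methylation, and the coordinates are those of GRCr8, whereas the peaks are in Rnor_6.0.
Distal start, chr1:86877839-86878088, minus strand: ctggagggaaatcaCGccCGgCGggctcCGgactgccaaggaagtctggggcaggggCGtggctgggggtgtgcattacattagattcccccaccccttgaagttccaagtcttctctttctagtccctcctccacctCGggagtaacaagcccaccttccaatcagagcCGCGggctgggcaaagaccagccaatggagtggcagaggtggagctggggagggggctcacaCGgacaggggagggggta
Proximal start, chr1:86872106-86872355, minus strand: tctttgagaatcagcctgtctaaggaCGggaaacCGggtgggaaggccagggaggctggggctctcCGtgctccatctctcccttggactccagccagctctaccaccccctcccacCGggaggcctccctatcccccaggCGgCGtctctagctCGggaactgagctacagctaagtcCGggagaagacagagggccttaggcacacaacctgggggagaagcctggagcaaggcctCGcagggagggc

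Each stretch held 9 CpG dinucleotides, and 61.5% of the 33469 promoters of the same table held fewer in a stretch of this length. The G+C content was 62.4% before the distal start and 64% before the proximal start. Neither stretch held ACGTG, the core of the hypoxia response element, on either strand, a motif found in 16.6% of the promoters. Neither held CGTCA, part of the cyclic AMP response element (18.2% of promoters), nor a palindromic form of the glucocorticoid response element (0.373% of promoters). The absence of a match says only that these letters did not occur in these windows.

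The 12 lists held 50370 (Ethanol 5) to 75847 (Ethanol 6) peaks and covered 75.6 Mb (Control 1) to 134.6 Mb (Ethanol 6). Covered lengths are therefore given both in bp and as bp per Mb in peaks, that is, divided by the total length of the library's peaks. Peak scores were used only as ranks and are given as percentiles within a library, where 100 is the highest score in the list. Ethanol 6 stands apart in covered length, and values in which it takes a large part are also given without it.

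**Figure D1:**
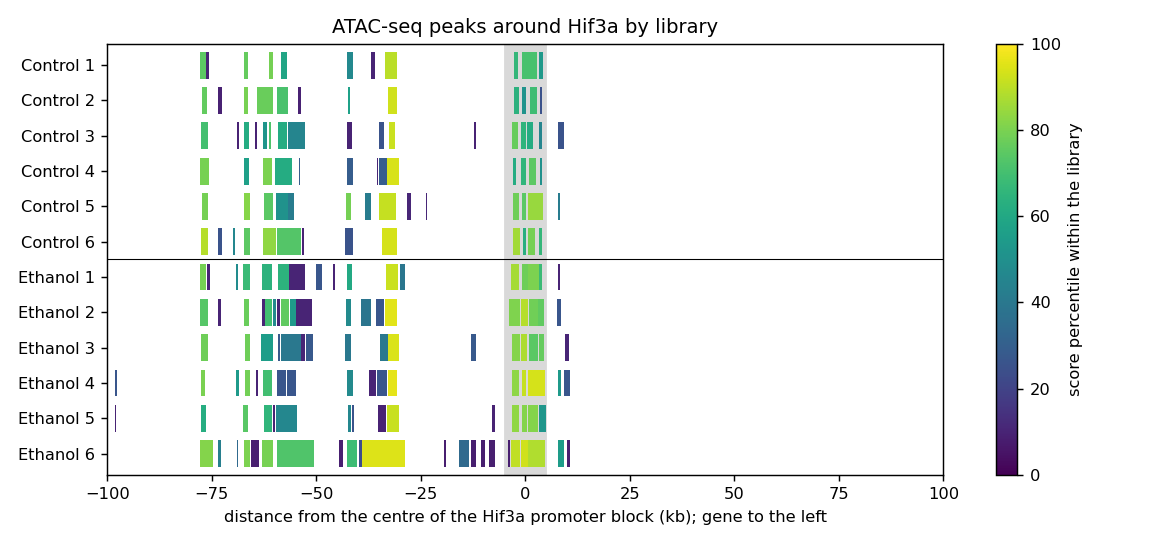
Peaks of each of the 12 libraries (rows) in the window around Hif3a, by distance from the centre of the promoter block in kb, with the gene to the left. Colour gives the score percentile within the library and the grey band is the 10 kb promoter block, where the Ethanol libraries have longer peaks of higher median rank. No library has a peak in the last 89280 bp of the window.

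Within the promoter block, peaks covered 5648, 4236, 4715, 4075, 6028 and 5103 bp in Control 1 to 6. They covered 6557, 7827, 6201, 6659, 6946 and 8408 bp in Ethanol 1 to 6. Every Ethanol library was above every Control library, and the means were 4968 ± 775 bp and 7100 ± 844 bp (SD, n = 6 each), a ratio of 1.43. The block was chosen for this greater length, and the share of other 10 kb windows that separate in this way is not given. Per Mb in peaks the groups overlapped, at 57.6 ± 11 for Control and 74.6 ± 10.9 for Ethanol, and 3 of the Ethanol libraries exceeded every Control library. The number of separate peaks in the block was 3.67 ± 0.516 in Control and 3.83 ± 0.408 in Ethanol. The block thus held about as many peaks in both groups, and they were longer in Ethanol.

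The first of the 2 regions, chr1:78995897-78998702, holds the Hif3a start site in the study's annotation of its peaks. It was covered over 1107, 1344, 1357, 825, 1498 and 1663 bp in the Control libraries and over 1839, 2704, 1742, 1662, 1756 and 2687 bp in the Ethanol libraries. Control 6 exceeded Ethanol 4 by 1 base, and the other 5 Ethanol libraries were above every Control library. The means were 1299 ± 296 and 2065 ± 492 bp. The peaks of this region began at base 78996868 to 78997183 in Control libraries and at 78995897 to 78996861 in Ethanol libraries. Every Ethanol library thus reached further into the gene, but Ethanol 3 (78996861) by only a few bases beyond Control 3 (78996868). The lowest first base came from a separate 469 bp peak of Ethanol 6 at score percentile 8.37, whose next peak began at 78996456. The share of regions whose edges separate in this way is not given. At the upstream edge the groups overlapped, with last bases at 78997805 to 78998651 in Control and at 78998367 to 78998702 in Ethanol.

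The second region, chr1:78998889-79004845, lies upstream of the start site. It was covered over 4541, 2892, 3358, 3250, 4530 and 3440 bp in the Control libraries and over 4718, 5123, 4459, 4997, 5190 and 5721 bp in the Ethanol libraries. Control 1 and Control 5 were close to the lower Ethanol libraries, and 5 of 6 Ethanol libraries were above every Control library. The means were 3669 ± 697 and 5035 ± 433 bp, and its first and last covered base lay 4936 ± 215 bp apart in Control against 5433 ± 302 bp in Ethanol. Uncovered gaps inside that distance summed to 1267 ± 597 bp in Control libraries (509 to 1865 bp) and 398 ± 293 bp in Ethanol libraries (83 to 905 bp). The number of peaks was 16 in each group. The greater length in this region was thus mostly bases between and beside the same number of peaks, more than an outward shift of the outermost edges.

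Across the 21640 regions of the genome with a peak in all 12 libraries, the log2 difference in centred length placed the start site region (0.61) above 98.5% of regions and the upstream region (0.41) above 95.2%. In neither of them did every Ethanol library exceed every Control library, which was seen in 0.148% of these regions. These places describe how the block was chosen and are no test of it.

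Base by base, 4 stretches of the block were in a peak in all 12 libraries, 2623 bp in total. The first was chr1:78997183-78997805 (623 bp), within the start site region, and the others were chr1:78999329-79000035 (707 bp), chr1:79001024-79001870 (847 bp) and chr1:79003451-79003896 (446 bp), within the upstream region. The midpoints of the first and the last were 6179.5 bp apart, beside the 5733 bp between the RefSeq start sites in the other assembly. Of the 8949 bases from the first to the last covered base, 5759 were in a peak in more Ethanol than Control libraries, 133 in more Control libraries and 3057 in equal numbers, including 186 in no library. Stretches in a peak in at least 5 Ethanol and at most 1 Control library numbered 5 and summed to 676 bp. The longest were chr1:79002726-79003044 (319 bp), between the last pair of shared stretches, and chr1:78996781-78996980 (200 bp), at the gene-side edge of the start site region.

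**Figure D2:**
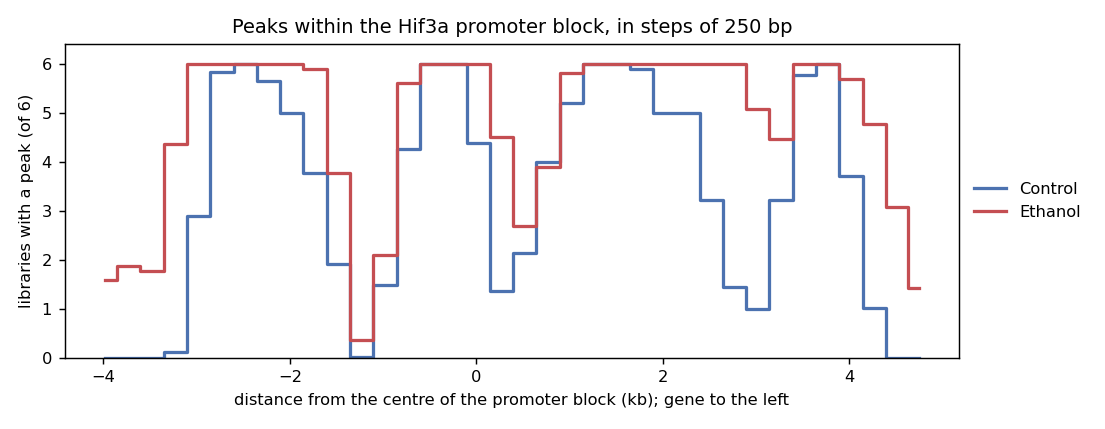
Mean number of libraries of each group (of 6) with a peak, in steps of 250 bp across the promoter block, by distance from the centre of the block in kb. Both groups reach 6 libraries at 4 places, and the Ethanol line stays above the Control line at the gene-side edge, between the last 2 of these places and at the upstream edge.

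The score percentile of the highest-scoring peak was also higher on average in Ethanol in both promoter regions, which is again a description. In the start site region it was 66.0, 64.0, 76.9, 61.4, 77.8 and 85.9 in Control and 86.4, 80.8, 81.6, 83.0, 83.5 and 90.3 in Ethanol. In the upstream region it was 71.1, 69.1, 64.9, 75.0, 84.6 and 78.9 in Control and 80.5, 88.9, 87.7, 93.6, 81.6 and 92.8 in Ethanol. The group means differed by 12.2 points in the first and 13.6 points in the second. Control 6 and Control 5, respectively, ranked among the Ethanol libraries, so that neither region belonged to the 0.116% of regions in which every Ethanol library ranked above every Control library. Over all peaks of the block, the median percentile was 57.8 to 77.8 in Control and 79.0 to 91.2 in Ethanol. The share of other 10 kb windows with such a separation is not given.

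Outside the block, peaks also covered more of the window in the Ethanol group. They covered 144.0, 162.4, 228.3, 204.8, 184.2 and 167.1 bp per Mb in Control 1 to 6 and 196.9, 268.7, 280.4, 220.0, 205.6 and 310.0 bp per Mb in Ethanol 1 to 6. All 6 Ethanol libraries were above the Control median, and 3 of 6 (Ethanol 2, 3 and 6) were above every Control library. The means were 182 ± 30.7 and 247 ± 45.8 bp per Mb, a difference of 65.1 (two-sided exact permutation test over libraries, p = 0.0195, adjusted p = 0.0244 over the 5 tests of the surroundings). The smallest p this design allows is 0.00216. Among 4569 windows of 200 kb with at least 5000 bp in peaks on average, 2.95% were higher in Ethanol and 2.58% lower at an exact permutation p under 0.05. Without Ethanol 6 the difference was 52.5 bp per Mb (exact permutation p = 0.0346).

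The ratio of the group means was 1.36 outside the block and 1.29 within it, both per Mb in peaks. The block took 24.3 ± 5.32% of the covered length of the window in Control and 23.5 ± 3.97% in Ethanol. With all peaks of these lists, the greater covered length was thus not particular to the promoters. With the higher scoring 50% of each list, the block, described without a test, differed by 29.7 bp per Mb and its surroundings by -0.84. Where part of a list is used, bp per Mb refer to the length of the peaks kept, a smaller total. The 29.7 is therefore not on the scale of the 17.0 bp per Mb by which the block differed with all peaks. In a split at the median score, added after the data were seen, the greater length outside the block lay mostly in low-scoring peaks. Peaks at or below the median score of their own list covered 5137 ± 3235 bp in Control and 11471 ± 1759 bp in Ethanol (exact permutation p = 0.00649), and 4 Ethanol libraries exceeded every Control library. Peaks above the median score covered 10751 ± 3198 and 12823 ± 8596 bp (exact permutation p = 0.76), where Ethanol 6 alone had 29942 bp and the Ethanol median was 9792 bp. Both p-values are unadjusted and in bp, and they concern parts of the difference tested above, so they describe it and add no separate evidence. In the block the order was the opposite, with 4527 ± 1236 and 6760 ± 980 bp in peaks above the median score and 441 ± 514 and 340 ± 631 bp in peaks at or below it. In bp the block thus differed by 2233 in peaks above the median score and by 2132 in all peaks. The call outside the block ended with the higher scoring 50% of each list (difference -0.84 bp per Mb, p = 0.989) and with the 50370 highest-scoring peaks of each list (difference 56.1, p = 0.0649), by the same exact permutation test.

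**Figure D3:**
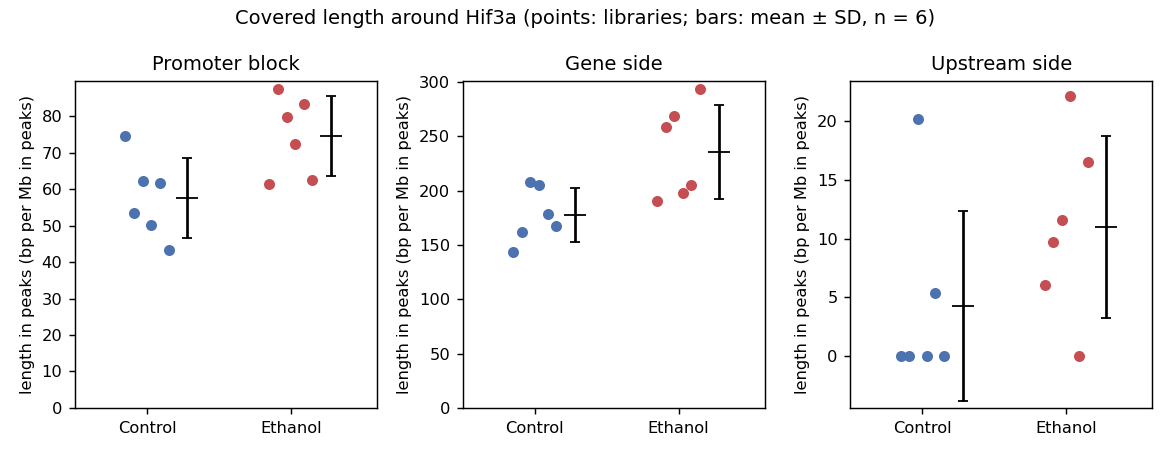
Length in peaks per Mb in peaks, for each library (points) with the mean and SD of each group (n = 6), in the promoter block, on the gene side and on the upstream side. Each panel has its own axis, and the lower SD of the Control group on the upstream side reaches below 0. The Ethanol mean is higher on the gene side (236 against 178), where 3 of 6 Ethanol libraries lie above every Control library, and the groups overlap in all 3 panels.

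The number and the rank of the peaks outside the block moved in opposite directions. The Control libraries had 8, 8, 13, 9, 11 and 9 peaks there and the Ethanol libraries 13, 15, 13, 14, 11 and 18. Control 3 and Control 5 overlapped the Ethanol libraries, and the means were 9.67 ± 1.97 and 14 ± 2.37 peaks (exact permutation p = 0.0152, adjusted p = 0.0244). The median score percentile of these peaks was 45.6 to 73.6 in Control (mean 61.1 ± 11.8) and 34.1 to 48.1 in Ethanol (mean 42.2 ± 5.95). The difference was -18.9 points (exact permutation p = 0.00866, adjusted p = 0.0244), with 3 of 6 Ethanol libraries below every Control library. More peaks were thus listed around the block after ethanol, and the typical one ranked lower, whereas peaks within the block ranked higher. Both calls also ended with equal list lengths, with differences of 2.5 peaks (p = 0.0866) and -11.9 points (p = 0.102) by the exact permutation test.

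**Figure D4:**
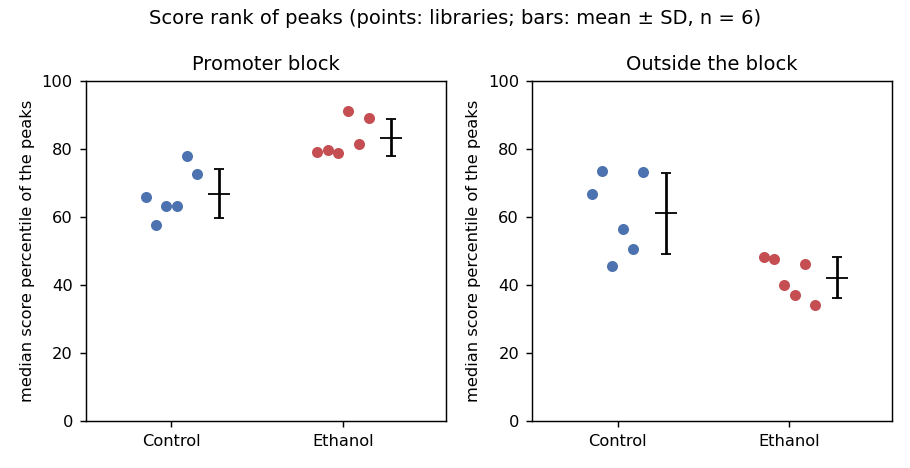
Median score percentile of the peaks in each library (points) with the mean and SD of each group (n = 6), within the promoter block and in the rest of the window. Ethanol libraries lie higher within the block (79.0 to 91.2 against 57.8 to 77.8) and lower outside it (34.1 to 48.1 against 45.6 to 73.6).

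Most of the greater length was on the gene side, where peaks covered 178 ± 25.1 (Control) and 236 ± 43.2 (Ethanol) bp per Mb (difference 58.4, exact permutation p = 0.0195, adjusted p = 0.0244). This call ended with the higher scoring 50% of each list (difference -5.68, p = 0.874) and with equal list lengths (difference 50.1, p = 0.0801), by the exact permutation test. All upstream peaks lie within 20 kb of the block, so leaving out regions within that distance left only gene-side regions. With all peaks, these differed by 48.1 bp per Mb (176 against 224 bp per Mb, exact permutation p = 0.0216). On the upstream side, the covered length was 0, 0, 1531, 0, 525 and 0 bp in Control 1 to 6 and 643, 868, 900, 2033, 0 and 2222 bp in Ethanol 1 to 6. A peak was thus listed there in Control 3 and Control 5 and in every Ethanol library except Ethanol 5. Per Mb in peaks the means were 4.26 ± 8.09 and 11 ± 7.77 (exact permutation p = 0.156, adjusted p = 0.156). This comparison turned on Control 3, without which the difference was 9.93 bp per Mb (exact permutation p = 0.0325).

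The upstream peaks made up 2 regions. The nearer, chr1:79007610-79009262, was listed in 2 Control and 4 Ethanol libraries (Fisher's exact test, p = 0.567) and the further, chr1:79009352-79010720, in 0 Control and 3 Ethanol libraries (Fisher's exact test, p = 0.182). This test can pass only for a region listed in 5 to 7 libraries. The further region could therefore not pass it with any split, and its p decides nothing. From base 79010721 to the end of the window, 89280 bp were empty of peaks in all libraries, on the side of the carcinoembryonic antigen genes. The nearest region beyond the window on this side, chr1:79102140-79102892, was listed in 1 Ethanol library, and the nearest beyond the other end, chr1:78899059-78899602, in 1 Control library. Next to the block on the gene side lay chr1:78991382-78992771, listed in Ethanol 5 and Ethanol 6.

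Outside the block, 5 regions had a peak in all 12 libraries, all of them on the gene side and at least 24679 bp from the block's regions. The group mean of covered length in bp was greater in Ethanol in all 5, where 62.4% of all 21640 regions were longer in Ethanol in bp. On the log2 scale, centred on each library, 4 of the 5 were longer, beside 47.3% of all regions. By limma, 1 of the 5 had an unadjusted p under 0.05, longer in Ethanol, beside 2.95% of all regions in that direction, and none passed after adjustment over all regions, as was so for 0% of regions in the genome.

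The region with the greatest log2 difference was chr1:78960279-78971217, in which the study's annotation of its peaks places the start of Ppp5c. Its peaks covered 3845, 2149, 2897, 5249, 5529 and 3504 bp in Control and 3974, 7142, 4590, 6472, 4860 and 10802 bp in Ethanol. Ethanol 6 was the longest by far, and Ethanol 1, 3 and 5 lay among the Control libraries. The means were 3862 ± 1319 and 6307 ± 2507 bp, and the log2 difference was 0.64 ± 0.25 (SE, limma adjusted p = 0.938), greater than in 98.7% of regions. This was the region with an unadjusted limma p under 0.05, which was lost without Control 2, Control 6, Ethanol 2 or Ethanol 6. It was also lost with the higher scoring 50% of each list (log2 difference 0.27) and with 100 bp added in regions listed in at least 2 libraries (0.55). With the peaks merged again without Ethanol 6 the log2 difference was 0.43. Its score percentile was high in both groups, 92.2 ± 1.57 in Control and 94.0 ± 1.88 in Ethanol (limma difference 1.82 ± 1.08 SE, adjusted p = 1). The highest-scoring peak of this region thus ranked high in the lists of both groups, above those of the Hif3a promoter regions in every library.

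The largest region of the window, chr1:78934326-78949392, spans 15067 bp. Its peaks covered 2354, 7231, 8363, 6564, 6560 and 9440 bp in Control and 8914, 10802, 10733, 6995, 7640 and 13208 bp in Ethanol. Control 1 was the shortest, and Ethanol 1, 4 and 5 lay among the other Control libraries. The means were 6752 ± 2428 and 9715 ± 2314 bp, with a log2 difference of 0.55 ± 0.27 (SE, limma adjusted p = 0.976). Its peaks numbered 19 over the Control libraries and 26 over the Ethanol libraries. The score percentile was lower in Ethanol, 77.8 ± 4.09 against 68.3 ± 8.59 (limma difference -9.49 ± 3.73 SE, adjusted p = 1), and 4 of 6 Ethanol libraries were below every Control library. Of the 5 regions, 3 ranked higher in Ethanol, beside 61% of all regions, and this one alone had an unadjusted limma p under 0.05 for score rank. At that threshold 0.596% of all regions ranked lower and 2.8% higher in Ethanol, and 0% passed after adjustment. The unadjusted call was lost without Control 4, Control 6, Ethanol 1 or Ethanol 5. Its log2 length difference turned to -0.38 with the higher scoring 50% of each list.

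The other 3 regions with a peak in all libraries differed less than their spread. The region that holds the Ccdc8 start in the study's annotation, chr1:78932546-78934231, was covered over 1154 ± 251 bp in Control and 1303 ± 178 bp in Ethanol (log2 difference 0.13 ± 0.13 SE). The region chr1:78922046-78925176 was covered over 1765 ± 411 and 1803 ± 685 bp (log2 difference -0.08 ± 0.21 SE), and chr1:78956783-78959717 over 1317 ± 456 and 1549 ± 460 bp (log2 difference 0.22 ± 0.22 SE). Their score percentiles differed by 4.23 ± 4.40, -2.37 ± 3.73 and 10.4 ± 10.6 points (SE), in the same order. The adjusted limma p was 0.99 for each length and 1 for each score percentile. The Ccdc8 start region thus had a peak in every library, and its differences in log2 length and in score percentile were no larger than their SE.

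The remaining 16 regions outside the block were not listed in all 12 libraries, were 309 to 2416 bp long, and had score percentiles of 8.37 to 54.8. Of these, 9 were listed in 1 library, 6 of them in an Ethanol library and 3 in a Control library, where 55.1% of such regions of the genome were in an Ethanol library. Ethanol 6 held 4 of the 9, beside 16.6% genome-wide. Of the 7 regions in 2 to 11 libraries, 6 were in more Ethanol than Control libraries and 1 in equal numbers, where 41.7% of such regions of the genome were in more Ethanol libraries. Ethanol 6 was among the libraries in 6 of the 7. By Fisher's exact test, 0 of the 12 regions of the surroundings with a peak in at least 2 libraries had an unadjusted p under 0.05, beside 0.192% in the genome, and 0 passed after adjustment. With 6 libraries a group this test can pass only for a region listed in 5 to 7 libraries, which was so for 1 of the 12, chr1:79007610-79009262. Between the block and the Ppp5c start region, chr1:78980531-78981115, chr1:78984118-78986533 and chr1:78989296-78990319 were listed in Ethanol 6 and in no other library, and chr1:78971783-78972642 and chr1:78976126-78976434 in Control 5 and in no other library.

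On a grid of 10 kb windows, which does not depend on how peaks merge, 8 windows outside the block had at least 500 bp in peaks on average. By limma, 0 of the 8 had an unadjusted p under 0.05, beside 2.39% of 40564 windows in the genome that were longer in Ethanol, and 0 passed after adjustment, beside 0.0197%. Both windows next to the block, which are counted among the 8, met the minimum of 500 bp only through the Ethanol libraries. Their log2 differences, which depend on the 100 bp added to each value, are therefore descriptions. On the upstream side the difference was 1.85 ± 0.91 (SE), with 343 ± 619 bp in Control and 1111 ± 853 bp in Ethanol. A peak was listed there in 2 Control and 5 Ethanol libraries. The window on the gene side had a peak in 1 Control and 3 Ethanol libraries. It differed by 1.54 ± 0.96 (SE), with 57.8 ± 142 bp in Control and 1122 ± 1965 bp in Ethanol. Ethanol 6 alone held 5030 of the 6730 bp summed over the Ethanol libraries there. Without it the Ethanol mean was 340 ± 494 bp (n = 5), and the window no longer had 500 bp on average. Windows with few or no peaks in Control could reach that minimum through the Ethanol libraries, so no count of directions is given. Both neighbours were sparse beside the block, and their values overlapped between the groups.

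**Figure D5:**
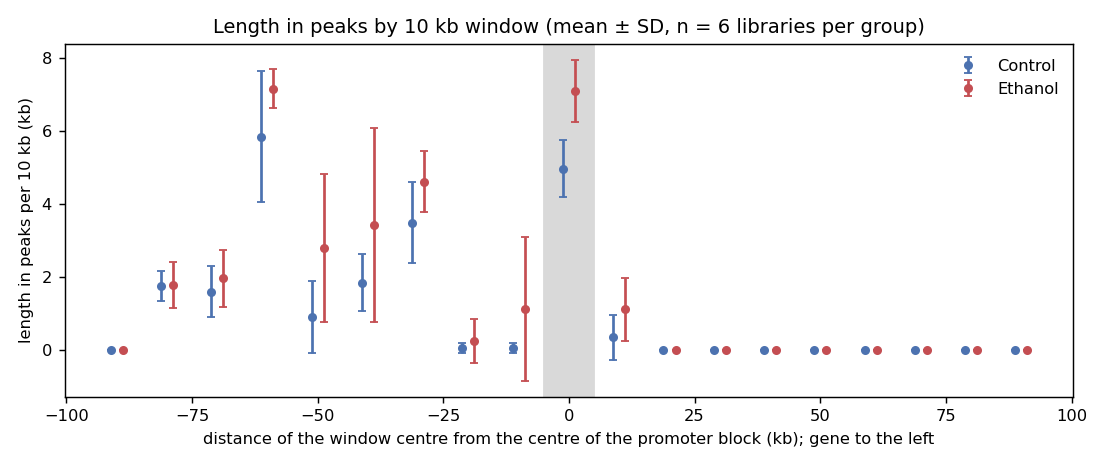
Length in peaks per 10 kb window (mean and SD, n = 6 libraries per group) by the distance of the window centre from the centre of the promoter block in kb, for the 19 windows that lie whole within the 200 kb. The grey band is the block (4968 bp in Control, 7100 bp in Ethanol). Lower SD bars reach below 0 in sparse windows, and 9 of the 19 windows hold no peak in any library.

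Covered length at the promoters was also compared with that of other regions over the 12 libraries, as a description. The log2 length of the upstream region correlated with that of the Ppp5c start region (Pearson r = 0.689) and of the Hif3a start site region (r = 0.566), and less with the Ccdc8 start region (r = 0.421) and chr1:78956783-78959717 (r = 0.344). Its r with the largest region of the window was -0.04, and that with chr1:78922046-78925176 was -0.01. The 5 regions of the genome with the highest r, at least 1 Mb away, were chr17:7504015-7506802 (r = 0.858), chr18:47894161-47895448 (r = 0.851), chr20:19397213-19401125 (r = 0.843), chr10:62641540-62652318 (r = 0.843) and chr1:276241601-276243985 (r = 0.841). These correlations are over both groups together, and the libraries share their depth across regions. The upstream region belongs to the block chosen for its greater length in Ethanol, so r favours regions that are also longer in Ethanol. Each of the 5 had a higher mean in Ethanol, such as chr17:7504015-7506802 with 1491 bp in Control and 2294 bp in Ethanol. The share of all regions that reach the r of the Ppp5c start region is not given.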

How the data were processed

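ATAC-seq was measured in amygdala of 6 Control and 6 Ethanol rats, with groups and replicate numbers taken from the sample titles and treatment labels. The submitters' processing notes name BWA, MACS2 2.1.1, bedtools 2.27.1, featureCounts 1.5.0, edgeR and Rnor_6.0. Their roles for the deposited lists, the handling of duplicates and any correction for the transposase cut site are not given in the sources used here. The authors deposited 1 peak list per library with a score per peak, whose meaning is not stated and which was used here only as a rank. Depth is unknown without read counts, and peak number and width can grow with depth, so precision is that of 6 libraries per group. Each p-value sets a group difference against the variation between these libraries, which limma shares over all regions or windows.

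The window, members, lists and alternatives were chosen with earlier results of these data known. Peaks of all libraries were merged at 1 bp into regions. Covered length (log2, minus the library median) and score percentile of the highest-scoring peak were tested with limma 3.58.1 (R 4.3.3) in regions with a peak in all 12 libraries, detection with Fisher's exact test in regions listed in at least 2 libraries, and 10 kb windows with limma, adding 100 bp. All were adjusted by Benjamini-Hochberg over the genome, with a threshold of 0.05. Values summed outside the block were tested by two-sided exact permutation of the libraries (Python 3.11.15, scipy 1.17.1). The steps were tested on simulated data. Regions were named singly if listed in all libraries or with an unadjusted p under 0.05. The regions listed in fewer libraries that are named beside the ends of the window, beside the block and in 1 library between the block and the Ppp5c start were chosen after their values were seen. Likeness was Pearson r with the promoter region of greatest covered length.

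Alternatives were the higher scoring 50% of peaks, the same number of peaks (50370), no division or centring, quantile normalization, a pseudocount of 100 bp in regions listed in at least 2 libraries, other windows and pseudocounts, no regions within 20 kb, 50% coverage for detection, the replicate block and leaving out each library. Merging again without Ethanol 6 and the split at the median score were added after the data were seen. Gene positions in Rnor_6.0 were not used beyond what the study's annotation states for its peaks, so other HIF pathway genes and cell type markers were not analysed here.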

Additional observations from a re-analysis of the deposited data

Results flagged for a closer look

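Of 40 groups of 6 libraries examined for a value far from the others by Dixon's ratio of gap to range, 2 held such a value, and chance gives about 1 in 20. The covered length on the upstream side of the block was 20.2 bp per Mb in Control 3, while the other Control libraries had 0 to 5.37 bp per Mb. The covered length of chr1:78956783-78959717 was 2476 bp in Ethanol 6, while the other Ethanol libraries had 1226 to 1440 bp.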

How the results depend on the processing

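Of 43 values recomputed with all libraries under another setting, 28 were kept. A tested difference was kept if its sign and its side of the threshold stayed. The block, which had no test, was kept if it stayed within 1 SD. The counts that were kept were unchanged, among them counts of 0 for detection and for 10 kb windows that stayed 0. Counts of regions were compared as counts: with 100 bp added in regions listed in at least 2 libraries, the 1 region with an unadjusted p under 0.05 for length was chr1:79009352-79010720 in place of chr1:78960279-78971217. It was listed in 0 Control and 3 Ethanol libraries, so it entered that setting only through the Ethanol group. Its difference there depends on the 100 bp added and is a description. With the higher scoring 50% of peaks, the difference outside the block turned to -0.84 bp per Mb and that on the gene side to -5.68 bp per Mb, the difference in peaks fell to 0.5 and that in score rank to -3.82 points, while the block differed by 29.7 bp per Mb. These bp per Mb refer to the length of the peaks kept and are not on the scale of those of all peaks. In that setting no region outside the block had an unadjusted p under 0.05 for length, and the log2 length of chr1:78934326-78949392 turned to -0.38. With the same number of peaks from each list, the differences were 56.1 bp per Mb outside the block, 50.1 on the gene side, 2.5 peaks and -11.9 points, none past the threshold. Peaks merged again without Ethanol 6 left 0 regions with an unadjusted p under 0.05 for length.

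The correlations of deviations did not settle whether the replicate numbers pair the libraries. They were -0.07 to 0.214 (mean 0.048) for the same number and -0.17 to 0.12 (mean -0.0096) for other numbers. Of the 12 libraries, 5 correlated best with their own number. With the number as a block, the gene side (58.4 bp per Mb, sign-flip p = 0.0625) and the number of peaks (4.33, p = 0.125) missed the threshold by the exact test, and 2 regions each had an unadjusted limma p under 0.05 for length and for score rank.

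Leaving out each library in turn gave differences of 52.5 to 75.1 bp per Mb outside the block, 46.9 to 67.4 on the gene side, 4.51 to 9.93 on the upstream side (past the threshold without Control 3), 3.53 to 5 peaks, -22.0 to -16.4 points and 14.1 to 20.4 bp per Mb in the block. Regions with an unadjusted p under 0.05 numbered 0 (without Control 2, Ethanol 2 or Ethanol 6) to 2 (without Control 3 or Ethanol 4) for length, 0 (without Control 4, Control 6, Ethanol 1 or Ethanol 5) to 1 for score rank and 0 to 0 for detection, and 10 kb windows 0 to 1 (without Control 3, 4 or 5 or Ethanol 4 or 5). Without Control 3, Control 5 or Ethanol 5 that window was chr1:79005001-79015000, next to the block. It met the minimum of 500 bp only through the Ethanol libraries, so these calls are no test of it. For chr1:78922046-78925176 the log2 length ranged from -0.19 to 0.0406 and the score difference from -3.95 to 0.37 points.

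Regions of the genome with an unadjusted p under 0.05 for length split into 639 longer and 481 shorter in Ethanol, then into 817 and 173 if not centred, or 594 and 562 after quantile normalization. The upstream side had no region beyond 20 kb, so that setting gave no value there. Depth is unknown, which limits what the low-ranking peaks can show.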
